A study of Mus musculus with 7 samples.

Results

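The genes described here are the glucocorticoid receptor gene, the gene of an enzyme that makes its ligand inside cells, and 8 genes that the hormone-bound receptor is known to induce. The 10 members were named by symbol (Nr3c1, Hsd11b1, Tsc22d3, Fkbp5, Zbtb16, Per1, Klf9, Sgk1, Glul and Pdk4) and matched to mouse Ensembl identifiers among 54532 genes of a table of raw RNA-seq counts. All 10 had enough counts to be tested. The 7 libraries are all from PanMeso, a mouse line of pancreatic mesothelial origin that carries the green fluorescent marker eGFP. Mesothelium is the thin lining of the body cavities and of the organs in them. The groups were eGFP-positive cells sorted from tumours formed with BMFA3 pancreatic cancer cells (n = 2), the same from tumours formed with CT1BA5 pancreatic cancer cells (n = 2), and parental PanMeso cells (n = 3).

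For the sorted groups, per the labels, PanMeso cells and cancer cells were injected orthotopically, and eGFP-positive cells were later collected from the tumours by fluorescence-activated sorting. All PanMeso cells carry eGFP, and the labels give the same culture conditions for every library. The culture medium held 400 nM hydrocortisone, the pharmaceutical name of cortisol, which is an active glucocorticoid, with 3.3 nM epidermal growth factor and 870 nM insulin. The cells were kept at 33 °C and moved to fresh medium at 37 °C for 3 days before use. The labels give no age, strain, tumour time or drug treatment of the host, and no hormone measurement. Residence in a tumour, sorting and the end of culture with hydrocortisone, epidermal growth factor and insulin came together in every sorted library. These cannot be told apart. Nothing in the labels ties a replicate to its own culture or tumour, so p-values measure the spread between these libraries only.

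Glucocorticoids enter the cell and bind the receptor encoded by Nr3c1, which waits in the cytoplasm on the chaperone HSP90. The bound receptor moves to the nucleus and attaches as a dimer to palindromic DNA elements, where it induces genes such as Tsc22d3 and Fkbp5. It also represses inflammatory genes by acting on NF-kB and AP-1. In mesothelium and in fibroblasts, as in most tissues, the hormone is known for restraining the expression of inflammatory mediators.

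Library totals were 14792189 to 16501058 counts in BMFA3, 14327365 to 16981596 in CT1BA5 and 10096839 to 19210598 in parental libraries, and 13784 genes were tested. Levels are given as CPM on library sizes scaled by TMM, with mean ± SD. Libraries of the same group correlated at 0.993 to 0.996 across genes (log2 of CPM plus 1; genes are not independent replicates) and libraries of different groups at 0.879 to 0.961. Markers of other cell types moved too, and counts of calls here are for both sorted groups against parental cells. In that comparison 34.8% of all tested genes were called higher and as large a share lower. Of 15 mesothelial markers, 14 were lower and 1 higher, and their summed level ranged over 2891 to 2895 CPM in BMFA3, 1824 to 1897 in CT1BA5 and 12429 to 13582 in parental libraries. Of 9 tested fibroblast markers, 6 were higher and 2 lower, with summed levels of 6671 to 6816, 8669 to 8894 and 4655 to 5310.2 CPM in the same order. Of 4 tested pericyte markers, 2 were higher and 1 lower, with sums of 76.6 to 78.0, 113 to 139 and 81.1 to 91.8 CPM. The sorted groups differed here, since all 4 were called higher in CT1BA5 cells, but 1 higher and 1 lower in BMFA3 cells. Cspg4 stood at 0.0304 CPM in BMFA3, 5.06 in CT1BA5 and 0.0648 in parental cells.

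Of 11 macrophage markers, 3 were at 0 in every library (Ptprc, C1qa and C1qb) and 4 were tested, of which Fcgr3, Csf1r and Cd68 were higher and Mertk lower. Fcgr3 stood at 2.79 CPM in BMFA3, 8.36 in CT1BA5 and 0.285 in parental cells, and Mertk at 2.11, 1.92 and 17.0 CPM, so that the sums of 25.0 to 28.3, 28.4 to 29.9 and 29.8 to 33.6 CPM hide opposite changes. Of 6 neutrophil markers, S100a9, Csf3r and Retnlg were at 0 everywhere, while S100a8 was called higher, at 5.38 CPM in BMFA3, 1.71 in CT1BA5 and 0 counts in parental cells. Of 8 acinar markers, 5 were at 0 everywhere, Prss1 among them, while Cela1 was called higher, at 3.46, 4.48 and 0.745 CPM. Both tested endothelial markers changed, Kdr being lower at 23.3, 14.6 and 99.2 CPM and Egfl7 higher at 4.03, 8.25 and 2.11 CPM, with Cldn5 at 0. No lymphocyte marker had enough counts to be tested (Cd3e was at 0 everywhere), and their sum was at most 0.0662 CPM in BMFA3, 0.778 in CT1BA5 and 0.0727 in parental libraries. Of 3 tested adipocyte markers 1 was lower, the sums were at most 17.1, 7.76 and 15.9 CPM, and Adipoq and Plin1 were at 0. Here too the sorted groups differed, since all 3 were called lower in CT1BA5 cells and none was called in BMFA3 cells. Of 6 tested epithelial markers of tumour cells, 1 was higher and 3 lower, with sums of 14.8 to 18.5, 16.7 to 21.1 and 61.5 to 78.6 CPM. Krt7, at 7.46, 11.5 and 59.4 CPM, made up most of the parental sum, which hides opposite changes. In CT1BA5 cells alone against parental cells, 2 were called higher and 3 lower. The 2 were Krt17, at 0.155, 5.25 and 0.0406 CPM, and Cldn4, at 0.0304, 0.919 and 0.0490 CPM. The part of these shifts in the results below was not tested. In such bulk samples, fewer cells of a type and less RNA per cell cannot be told apart.

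Every member was lower in cells sorted from tumours than in parental cells. With edgeR's quasi-likelihood test, all 10 were called lower in the mean of both sorted groups at a Benjamini-Hochberg adjusted p under 0.05, where 34.8% of all tested genes were called lower. The members were chosen with earlier results of these data known, so their counts describe the list and are no test of it. Against parental cells, 9 of 10 were called lower in BMFA3 cells (29.9% of all genes) and 10 of 10 in CT1BA5 cells (35.1% of all genes). The median log2 fold change of the members was -1.48 for both sorted groups, -1.14 for BMFA3 and -1.83 for CT1BA5, and that of all genes was 0.006, 0.005 and 0. A drop beyond 2-fold passed edgeR's glmTreat test for 6 members in the mean of both sorted groups (10.1% of all genes), namely Zbtb16, Tsc22d3, Fkbp5, Glul, Per1 and Klf9. In none of the 10 did the CPM of a sorted library reach that of the lowest parental library, a separation in that direction found in 28.4% of all tested genes.

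**Figure D1:**
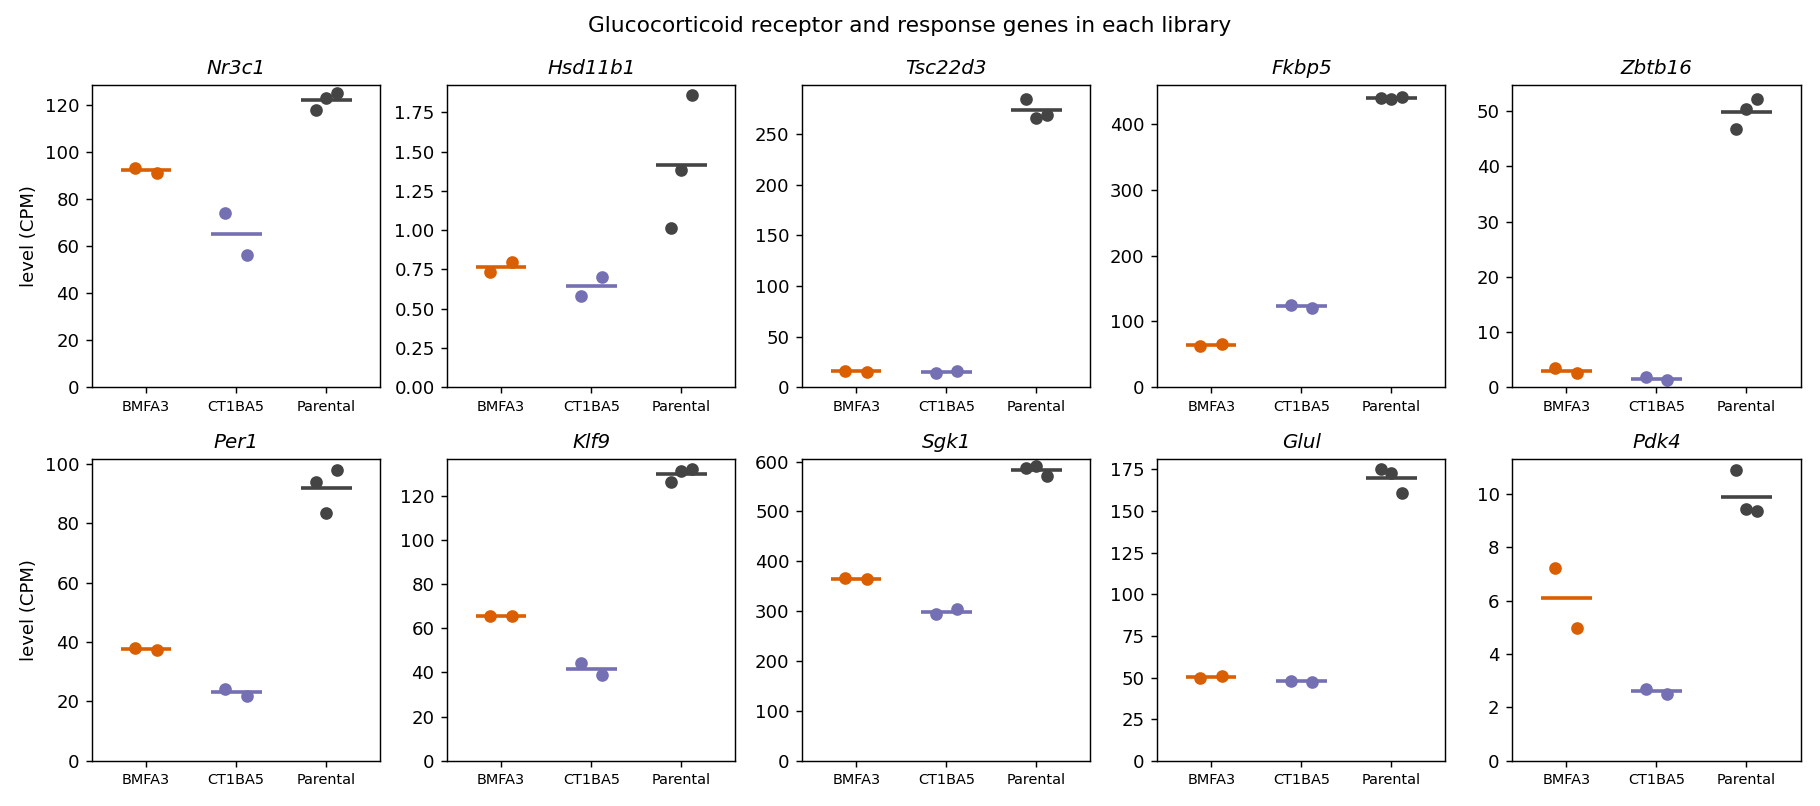
Level of each gene in each library (points; CPM on a linear axis from 0) with the group mean (line), for BMFA3 (n = 2), CT1BA5 (n = 2) and parental (n = 3) cells. All sorted libraries lie below all parental libraries in every panel, and in the panel of Fkbp5 the CT1BA5 points lie above the BMFA3 points.

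The receptor itself changed modestly. Nr3c1 (ENSMUSG00000024431, chromosome 18, 39410545 to 39519421 on GRCm38) stood at 93.2 and 91.0 CPM in BMFA3 libraries, 74.1 and 56.1 CPM in CT1BA5 libraries, and 118, 123 and 125 CPM in parental libraries. The groups did not overlap, and the CT1BA5 libraries differed from each other by 1.32 times. Receptor mRNA was 1.32-fold lower in BMFA3 cells (log2 -0.40 ± 0.087 SE, edgeR adjusted p = 4.9e-04) and 1.87-fold lower in CT1BA5 cells (log2 -0.90 ± 0.090, adjusted p = 2.5e-08) than in parental cells. It remained detected in every sorted library, at 92.1 ± 1.52 CPM in BMFA3 and 65.1 ± 12.7 CPM in CT1BA5 cells against 122 ± 3.71 CPM in parental cells.

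Hsd11b1 (ENSMUSG00000016194, chromosome 1, 193221634 to 193264075) encodes 11-beta-hydroxysteroid dehydrogenase type 1, which regenerates active glucocorticoid from its inactive keto form. It was close to the limit of detection, with 12 and 12 counts in BMFA3 libraries, 9 and 9 in CT1BA5 libraries, and 11, 19 and 38 in parental libraries. These correspond to 0.730 and 0.795, to 0.582 and 0.700, and to 1.01, 1.38 and 1.86 CPM, where 3 counts equal 0.147 to 0.276 CPM. The parental libraries spread the most, and the lowest of them was near the sorted ones. The log2 fold change was -1.07 ± 0.37 in the mean of both sorted groups (edgeR adjusted p = 0.0149) and -1.19 ± 0.47 in CT1BA5 cells (adjusted p = 0.0285), but in BMFA3 cells, at -0.94 ± 0.44, it missed the threshold (adjusted p = 0.0743). Leaving out parental replicate 3, BMFA3 replicate 1 or CT1BA5 replicate 1 ended the call in the mean of both sorted groups, with adjusted p of 0.116, 0.0521 and 0.0546 in edgeR, and DESeq2 gave 0.0502. The replicate number as a block (edgeR adjusted p = 0.155) and a threshold of 0.01 ended this call too. Over 15 alternatives that tested for any change, adjusted p ranged from 0.00625 to 0.155. The call in CT1BA5 cells was lost without parental replicate 3 (adjusted p = 0.121), CT1BA5 replicate 1 (0.163) or CT1BA5 replicate 2 (0.0838) in edgeR, and with DESeq2 (0.0787), within a range of 0.0101 to 0.163 over 16 alternatives. That call was also lost with the replicate number as a block and at a threshold of 0.01.

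The genes with the deepest decreases are standard reporters of receptor activity. Tsc22d3 (ENSMUSG00000031431, chromosome X, 140539528 to 140600659) encodes GILZ, a leucine zipper protein that binds NF-kB and AP-1 and carries part of the anti-inflammatory action of the hormone. It stood at 16.2 and 15.2 CPM in BMFA3 libraries, 14.4 and 16.0 CPM in CT1BA5 libraries, and 285, 266 and 269 CPM in parental libraries. The sorted groups overlapped each other and lay far below the parental group, at 5.74% of the parental level in BMFA3 and 5.56% in CT1BA5 cells by the fitted values. The log2 fold change was -4.12 ± 0.089 in BMFA3 cells (edgeR adjusted p = 4.8e-18) and -4.17 ± 0.090 in CT1BA5 cells (adjusted p = 1.4e-18).

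Zbtb16 (ENSMUSG00000066687, chromosome 9, 48654297 to 48836222) encodes PLZF, a zinc finger transcription factor with a BTB domain. It stood at 3.41 and 2.58 CPM in BMFA3 libraries, 1.75 and 1.24 CPM in CT1BA5 libraries, and 46.7, 50.4 and 52.2 CPM in parental libraries. All 3 groups were apart, with CT1BA5 cells the lowest. It was 16.5-fold lower in BMFA3 cells (log2 -4.05 ± 0.15, edgeR adjusted p = 1.1e-14) and 32.7-fold lower in CT1BA5 cells (log2 -5.03 ± 0.17, adjusted p = 1.5e-15) than in parental cells. Log2 fold changes under -4, as Tsc22d3 and Zbtb16 had in the mean of both sorted groups, were reached by 1.11% of all tested genes.

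Fkbp5 (ENSMUSG00000024222, chromosome 17, 28399094 to 28517527) encodes FKBP51, a co-chaperone that sits on the HSP90 complex of the receptor and lowers its affinity for hormone, so that its induction forms a negative feedback loop. It stood at 62.0 and 65.2 CPM in BMFA3 libraries, 125 and 121 CPM in CT1BA5 libraries, and 440.3, 438 and 441 CPM in parental libraries. Replicates of each group lay close together, and here the CT1BA5 libraries were the higher of the sorted ones. Relative to parental cells it was 6.92-fold lower in BMFA3 cells (log2 -2.79 ± 0.070, edgeR adjusted p = 3.7e-17) and 3.56-fold lower in CT1BA5 cells (log2 -1.83 ± 0.066, adjusted p = 3.7e-15).

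Per1 (ENSMUSG00000020893, chromosome 11, 69095217 to 69109960) encodes a repressor protein of the circadian clock that glucocorticoids induce directly. It stood at 37.9 and 37.5 CPM in BMFA3 libraries, 24.1 and 22.0 CPM in CT1BA5 libraries, and 94.1, 83.5 and 98.0 CPM in parental libraries. The 3 groups did not overlap. The log2 fold change was -1.29 ± 0.083 in BMFA3 cells (edgeR adjusted p = 7.8e-11) and -1.99 ± 0.090 in CT1BA5 cells (adjusted p = 1.3e-13).

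Klf9 (ENSMUSG00000033863, chromosome 19, 23141226 to 23168134), a Krüppel-like transcription factor gene and an early target of the receptor in many tissues, had nearly equal values in the BMFA3 libraries, 65.3 and 65.6 CPM. It stood at 44.1 and 39.0 CPM in CT1BA5 libraries and at 126, 131 and 132 CPM in parental libraries, again without overlap. The log2 fold change was -0.99 ± 0.071 in BMFA3 cells (edgeR adjusted p = 3.9e-10) and -1.64 ± 0.075 in CT1BA5 cells (adjusted p = 1.7e-13).

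Sgk1 (ENSMUSG00000019970, chromosome 10, 21882184 to 21999903) encodes a serum- and glucocorticoid-regulated kinase that acts on ion channels and on FOXO factors. It stood at 367 and 364 CPM in BMFA3 libraries, 294 and 304 CPM in CT1BA5 libraries, and 588, 591 and 571 CPM in parental libraries. Its replicates were tight and its groups apart, yet the change was among the smallest, at 1.60-fold lower in BMFA3 cells (log2 -0.67 ± 0.061, edgeR adjusted p = 1.1e-08) and 1.95-fold lower in CT1BA5 cells (log2 -0.96 ± 0.062, adjusted p = 3.0e-11).

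Glul and Pdk4 encode enzymes through which glucocorticoids act on fuel use. Glul (ENSMUSG00000026473, chromosome 1, 153899944 to 153909723) encodes glutamine synthetase, which makes glutamine from glutamate and ammonia. It stood at 49.5 and 51.2 CPM in BMFA3 libraries, 48.0 and 47.3 CPM in CT1BA5 libraries, and 175, 173 and 161 CPM in parental libraries. The sorted groups lay side by side and well under the parental group. The log2 fold change was -1.75 ± 0.072 in BMFA3 cells (edgeR adjusted p = 7.8e-14) and -1.83 ± 0.073 in CT1BA5 cells (adjusted p = 2.0e-14). Teddm2, which overlaps Glul on the opposite strand, reached at most 0.291 CPM.

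Pdk4 (ENSMUSG00000019577, chromosome 6, 5483351 to 5496309) encodes a kinase that switches off pyruvate dehydrogenase and so spares glucose; FOXO and PPAR factors induce it too. It stood at 7.24 and 4.97 CPM in BMFA3 libraries, 2.71 and 2.49 CPM in CT1BA5 libraries, and 10.9, 9.45 and 9.36 CPM in parental libraries. The BMFA3 libraries differed the most from each other, but stayed between the other groups. The log2 fold change was -0.68 ± 0.19 in BMFA3 cells (edgeR adjusted p = 0.00415) and -1.91 ± 0.22 in CT1BA5 cells (adjusted p = 2.1e-07). Without BMFA3 replicate 2 the BMFA3 value was -0.44 and no longer called (adjusted p = 0.105), within a range of 0.00129 to 0.105 over 16 alternatives.

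**Figure D2:**
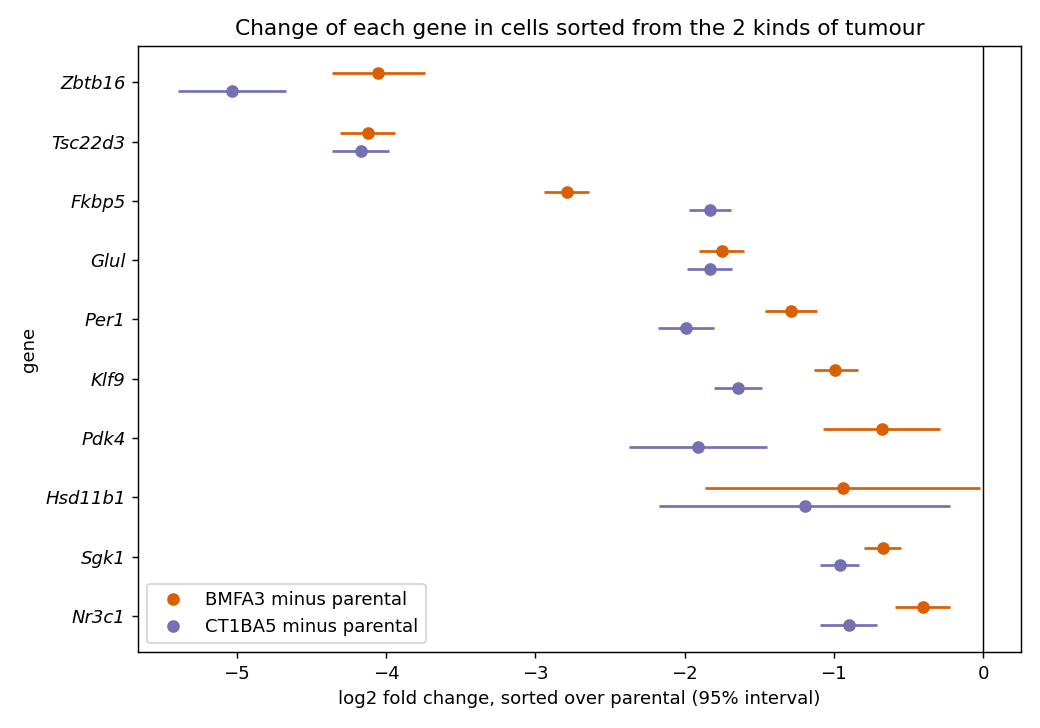
Log2 fold change of each gene in BMFA3 cells and in CT1BA5 cells over parental cells (points) with its 95% interval (lines) from the edgeR fit on all 7 libraries, ordered by the mean of both. All points lie left of 0, from -5.03 for Zbtb16 in CT1BA5 cells to -0.40 for Nr3c1 in BMFA3 cells. Fkbp5 is the gene whose CT1BA5 point lies clearly to the right of its BMFA3 point.

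Set against each other, cells from CT1BA5 tumours had lower levels than cells from BMFA3 tumours in 6 of the 10 genes (25.3% of all tested genes were called lower) and a higher level in 1, Fkbp5 (25.5% called higher). CT1BA5 and BMFA3 libraries did not overlap in 9 of 10 genes, and in 74.5% of all genes. The log2 difference of CT1BA5 minus BMFA3 was -1.23 ± 0.25 for Pdk4 (edgeR adjusted p = 3.3e-04), -0.71 ± 0.099 for Per1 (adjusted p = 7.4e-06) and -0.65 ± 0.081 for Klf9 (adjusted p = 1.6e-06). For Zbtb16 it was -0.99 ± 0.26 (adjusted p = 0.00409), a call that was lost without BMFA3 replicate 1 (-0.77, adjusted p = 0.0647, within a range of 0.00108 to 0.0647 over 16 alternatives).

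The receptor followed the same order, with Nr3c1 at -0.50 ± 0.097 in CT1BA5 over BMFA3 cells (edgeR adjusted p = 2.6e-04). Without CT1BA5 replicate 2, the lowest library for this gene, the difference was -0.31 (adjusted p = 0.00219). Sgk1 differed little, at -0.29 ± 0.066 (adjusted p = 0.00107), and at -0.45 when counts were scaled by library size alone. Fkbp5 went the other way, with 123 ± 2.84 CPM in CT1BA5 and 63.6 ± 2.30 CPM in BMFA3 cells and a log2 difference of 0.96 ± 0.071 (adjusted p = 1.3e-09). That left 3 genes with no call. The difference was -0.047 for Tsc22d3 (95% interval -0.26 to 0.17, adjusted p = 0.725), -0.079 for Glul (-0.25 to 0.089, adjusted p = 0.435) and -0.25 for Hsd11b1 (-1.40 to 0.89, adjusted p = 0.722). A 2-fold difference thus lay outside the interval for Tsc22d3 and Glul and inside it for Hsd11b1.

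Per kilobase of exon, which allows levels of different genes to be compared roughly, the order of the members differed between groups. The length used merges all annotated exons of a gene, whichever transcripts were expressed, so close ranks of different genes are uncertain. In BMFA3 cells Sgk1 led with 74.5 CPM per kb, before Glul (15.2) and Klf9 (13.6), and Tsc22d3, at 3.61, stood behind Nr3c1, Fkbp5 (6.72) and Per1 (6.69), of which Fkbp5 and Per1 overlapped. CT1BA5 cells had Sgk1 at 61.0, Glul at 14.3, Fkbp5 at 13.0, Klf9 at 8.63 and Nr3c1 at 8.47, the last pair overlapping, with Per1 at 4.10 and Tsc22d3 at 3.51. In parental cells Sgk1 also led, with 119 CPM per kb, followed by Tsc22d3 (63.0), Glul (51.1), Fkbp5 (46.5) and Klf9 (26.9). Per1 (16.3) and Nr3c1 (15.9) overlapped there, and Zbtb16 (9.42), Pdk4 (2.82) and Hsd11b1 (0.334) were the lowest. The lowest places were held in every group by Zbtb16, Pdk4 and Hsd11b1.

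The other parts of the receptor system did not move together. Of 24 genes of ligand metabolism, related receptors, chaperones, co-regulators and export pumps, 23 were tested, of which 9 were higher, 8 lower and 6 not past the threshold in the mean of both sorted groups (median log2 0.15), where 34.8% of all tested genes were called higher and as large a share lower. The related mineralocorticoid receptor gene Nr3c2, which also binds cortisol, was barely detected, at 0.516 CPM in BMFA3, 0.388 in CT1BA5 and 0.773 in parental cells, and was not called (edgeR adjusted p = 0.116). Hsd11b2, whose product inactivates cortisol, was detected at 0.249, 1.43 and 0.0569 CPM in that order. It was called higher in the mean of both sorted groups (log2 3.05, adjusted p = 0.00311), a call that was lost without BMFA3 replicate 1 (adjusted p = 0.059). H6pd, which supplies the NADPH that the Hsd11b1 enzyme needs, stood at 820.0 ± 20.9 CPM in BMFA3, 565 ± 61.3 in CT1BA5 and 524 ± 7.96 in parental cells. Its log2 fold change was 0.65 in BMFA3 cells (adjusted p = 1.1e-07) and 0.11 in CT1BA5 cells (adjusted p = 0.168).

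Among the co-chaperones of the receptor, Fkbp4, the relative of Fkbp5 that favours hormone binding and nuclear transport, had a level of 121 ± 3.10 CPM in BMFA3, 153 ± 14.1 in CT1BA5 and 104 ± 3.68 in parental cells (log2 0.39, edgeR adjusted p = 1.3e-05; 0.24 with library size alone). Ppp5c, a phosphatase on the same complex, stood at 53.8, 62.5 and 114 CPM (log2 -0.98, adjusted p = 5.6e-12). Ncoa3, a co-activator gene that shares exon bases with the more abundant Sulf2 on the opposite strand, stood at 33.5, 24.9 and 64.4 CPM. The lowest p among these genes was that of Abcb1b, an export pump that carries glucocorticoids among other substrates, with 50.1 ± 3.34 CPM in BMFA3, 54.5 ± 1.24 in CT1BA5 and 378 ± 54.9 in parental cells (log2 -2.86, adjusted p = 8.3e-17). Its near-identical neighbour Abcb1a can share reads with it and stood at 15.5, 51.1 and 37.2 CPM.

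A further 22 genes that glucocorticoids induce in some tissues were mixed. Of 20 tested, 10 were higher, 9 lower and 1 not past the threshold (median log2 0.33, and the same with the genes that had 0 counts in a group at their bound). The share of all tested genes was 34.8% in each direction. The smallest p-values were those of Angptl4, Anxa1 and Dusp1. Anxa1, the gene of the anti-inflammatory protein annexin A1, stood at 1516 ± 6.78 CPM in BMFA3, 794 ± 66.3 in CT1BA5 and 4327 ± 195 in parental cells (log2 -1.98, edgeR adjusted p = 1.7e-17). Dusp1, a phosphatase that switches off MAP kinases, stood at 13.5 ± 2.15, 12.3 ± 1.70 and 76.5 ± 2.49 CPM in the same order (log2 -2.58, adjusted p = 1.0e-15), and shares a few exon bases with Ergic1 on the opposite strand. Angptl4, a lipoprotein lipase inhibitor gene that also responds to PPAR factors and hypoxia, was higher, at 242 ± 7.51, 169 ± 6.81 and 15.1 ± 1.05 CPM (log2 3.75, adjusted p = 3.9e-19).

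Klf15, a Krüppel-like factor that works with the receptor in metabolic gene control, had 0 counts in both CT1BA5 libraries. It stood at 0.318 ± 0.0189 CPM in BMFA3 and 4.39 ± 0.229 CPM in parental cells, and was at least 41.5-fold lower in CT1BA5 than in parental cells, with 3 counts summed over a group as the floor. Other genes of this list were picked after their values were seen. Lcn2, a siderophore-binding protein of acute inflammation, stood at 188 CPM in BMFA3, 10.9 in CT1BA5 and 7.39 in parental cells, and Cebpd, a transcription factor of the same response, at 416, 101 and 58.6 CPM. Both are also induced by inflammatory cytokines. Cebpd shares 562 exon bases with Spidr on the opposite strand, which stood at 20.3 to 39.6 CPM over all libraries. Rgs2, a regulator of G protein signalling, and Pik3r1, a subunit of phosphoinositide 3-kinase, were lower, with log2 fold changes of -2.28 and -1.50 in the mean of both sorted groups.

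Of 19 inflammatory genes that the receptor is known to repress, 14 had enough counts to be tested, of which 10 were higher and 4 lower (median log2 2.57, and the same with the genes that had 0 counts in a group at their bound). Beside these, 34.8% of all tested genes were called higher and as large a share lower. Ptgs2, the gene of the inducible prostaglandin synthase, stood at 2465 ± 56.4 CPM in BMFA3, 3833 ± 126 in CT1BA5 and 99.3 ± 4.48 in parental cells (log2 4.95, edgeR adjusted p = 6.7e-22). Il6, an inflammatory cytokine gene, stood at 88.6 ± 2.18, 77.1 ± 7.24 and 1.13 ± 0.643 CPM in the same order (log2 6.26, adjusted p = 7.5e-18). Mmp9, a gelatinase gene, had 8.44 ± 1.26 CPM in BMFA3 and 658 ± 18.4 CPM in CT1BA5 cells, with 0 counts in parental cells. The 4 that were lower were Mmp3, Mmp13, Vcam1 and Cxcl10, of which Vcam1 and Cxcl10 were called higher in BMFA3 cells. These genes answer to many inflammatory signals, and what part the receptor had in their levels was not tested.

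**Figure D3:**
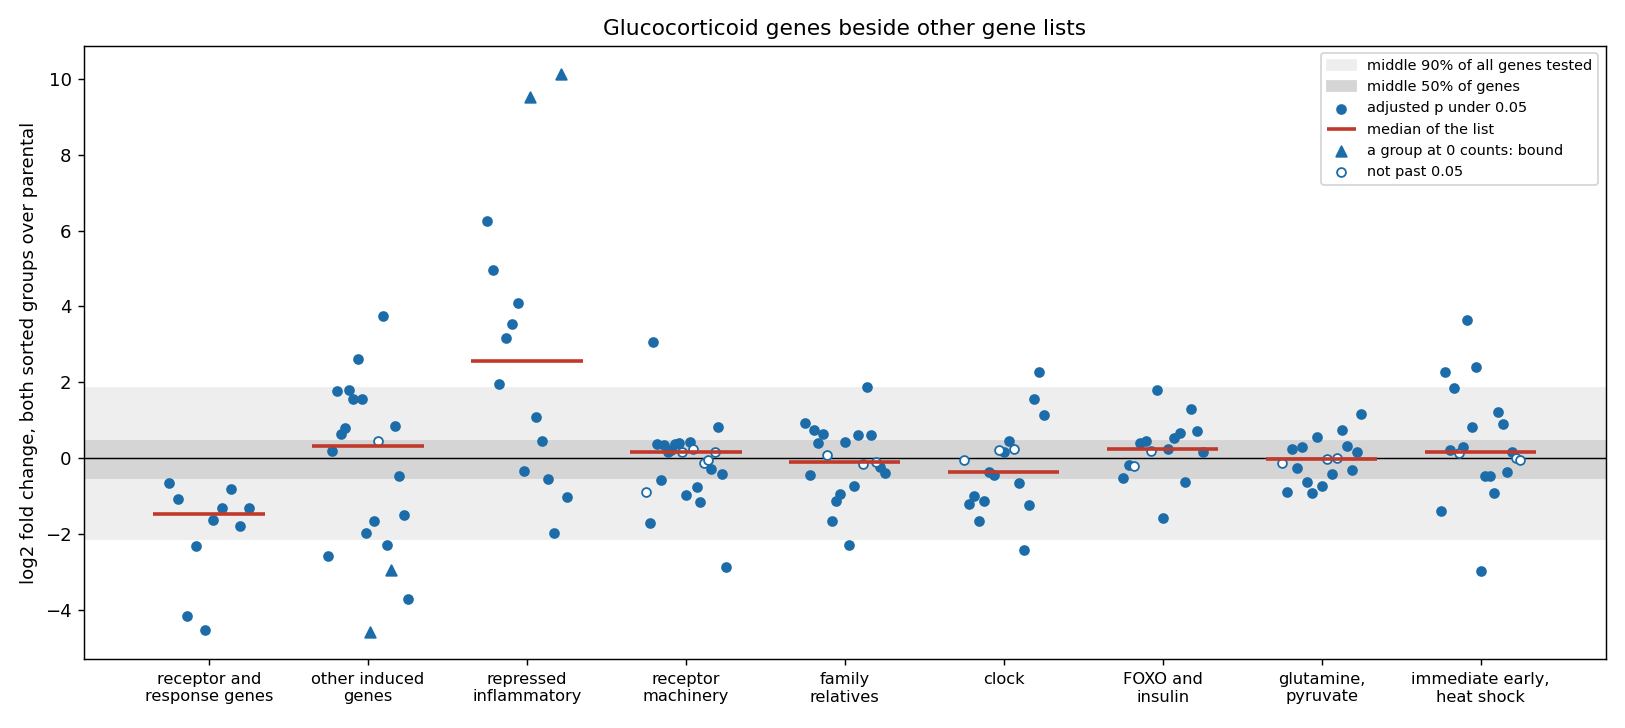
Log2 fold change of both sorted groups over parental cells for every tested gene of the member list and of 8 other lists (points; filled where the edgeR adjusted p is under 0.05), with list medians (red lines) and the spread of all 13784 tested genes (grey bands). Triangles mark genes with 0 counts in a group, drawn at their bound against 3 counts. The members all lie below 0, with a median of -1.48, the repressed inflammatory genes have a median of 2.57, and the other lists have medians between -0.36 and 0.33.

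The members belong to families, and their relatives give a view of what was shared by family and what was not. Of 20 relatives on a list of them, 19 were tested, with 8 higher, 8 lower and 3 not past the threshold in the mean of both sorted groups (median log2 -0.11). Among all tested genes the share was 34.8% in each direction. Tsc22d1, a relative of Tsc22d3 tied to TGF-beta, was higher, at 1142 ± 11.4 CPM in BMFA3, 1263 ± 78.8 in CT1BA5 and 637 ± 2.34 in parental cells (log2 0.92, edgeR adjusted p = 1.1e-11). Tsc22d4 was also higher (log2 0.73) and Tsc22d2 lower (log2 -0.45). Pdk1, a pyruvate dehydrogenase kinase gene that hypoxia induces, stood at 181 ± 11.4 CPM in BMFA3, 121 ± 3.95 in CT1BA5 and 40.3 ± 4.34 in parental cells (log2 1.87, adjusted p = 1.2e-14), against the lower Pdk4. Pdk2 was higher (log2 0.62), and Pdk3 was at 64.5, 57.8 and 65.7 CPM and not called in the mean (log2 -0.11, adjusted p = 0.122; called lower with library size alone).

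The Per genes fell together, and the Krüppel-like factors were mixed. Per2 stood at 8.19 ± 0.723 CPM in BMFA3, 5.66 ± 0.409 in CT1BA5 and 21.2 ± 2.17 in parental cells (log2 -1.65, edgeR adjusted p = 2.1e-10), close to the change of Per1, and Per3 at 4.80, 2.11 and 6.96 CPM (log2 -1.14). Among Krüppel-like factors, Klf13, the closest relative of Klf9, had a log2 fold change of -0.94, Klf6 of -0.73 and Klf4 of -2.30, while Klf10 and Klf2 were higher (0.60 and 0.43). Sgk3 stood at 18.2, 21.5 and 21.8 CPM and was not called in the mean (log2 -0.15, adjusted p = 0.149; called lower with library size alone), and Sgk2 had 0 counts in every library. Fkbp1a was higher (log2 0.64), as was Fkbp4, opposite to Fkbp5.

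**Figure D4:**
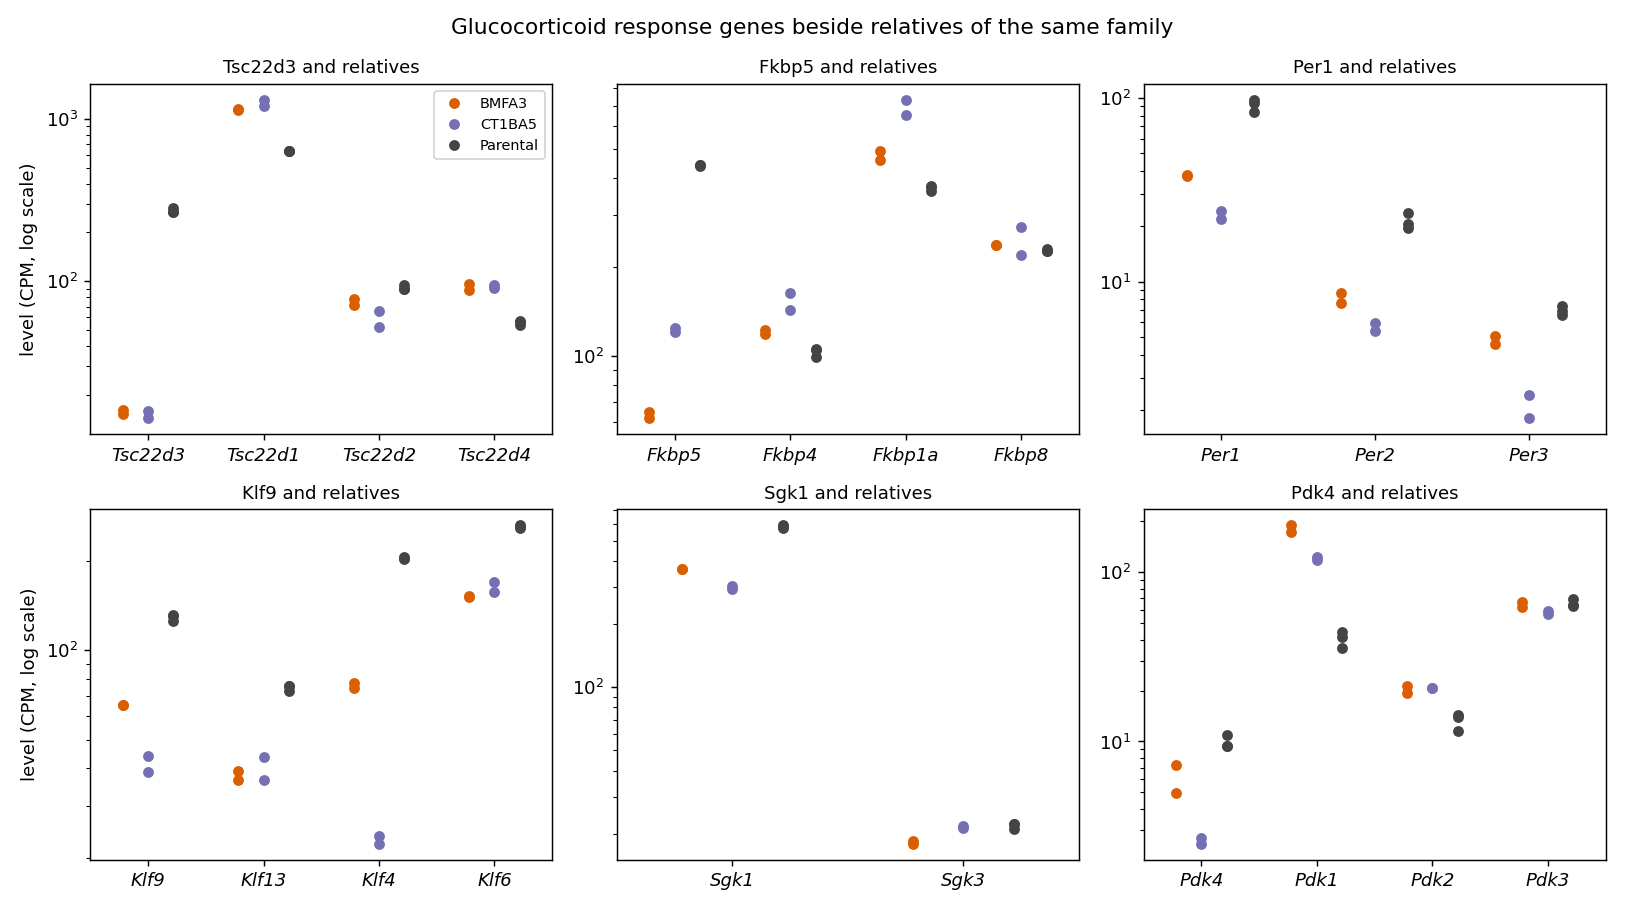
Level in each library (points; CPM, log axis) of 6 members, each first in its panel, and of relatives from the same family, for BMFA3, CT1BA5 and parental cells. Tsc22d3, Fkbp5 and Pdk4 are lower in sorted cells while Tsc22d1, Fkbp4 and Pdk1 are higher, and Per1, Per2 and Per3 are all lower.

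Genes that share other regulators with the members were examined in the same way. Of 17 clock genes, 5 were higher, 9 lower and 3 not past the threshold in the mean of both sorted groups (median log2 -0.36). In that comparison 34.8% of all tested genes were called higher and as large a share lower. Bhlhe40 and Bhlhe41, clock repressors that also answer to hypoxia, stood at 246 and 8.77 CPM in BMFA3, 435 and 63.5 CPM in CT1BA5 and 111 and 4.91 CPM in parental cells. Clock, the gene of the positive limb, stood at 31.1, 21.5 and 60.0 CPM (log2 -1.22, edgeR adjusted p = 1.0e-11), whereas its partner Arntl was at 20.0, 20.6 and 21.4 CPM and not called (adjusted p = 0.725). Of 15 genes of FOXO factors and insulin signalling, which bear on Sgk1 and Pdk4, 9 were higher, 4 lower and 2 not past the threshold (median log2 0.23). Ccng2, a FOXO target, and Txnip, a glucose-responsive gene, were higher (log2 1.79 and 1.30), and Sesn1, another FOXO target, was lower (log2 -1.58).

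Around the metabolic members, 17 genes of glutamine and pyruvate use split evenly into 7 higher and 7 lower with 3 not past the threshold (median log2 -0.017). All tested genes split evenly too, with 34.8% called in each direction. Ldha, which encodes lactate dehydrogenase A, stood at 2157 ± 2.52 CPM in BMFA3, 2154 ± 118 in CT1BA5 and 955 ± 69.3 in parental cells (log2 1.17, edgeR adjusted p = 3.7e-13). Glud1, the glutamate dehydrogenase gene, stood at 256, 274 and 491 CPM (log2 -0.89), and the glutamine carrier gene Slc38a1 at 139, 97.8 and 220.1 CPM (log2 -0.92). Immediate early and heat shock genes, which tissue dissociation can induce, were 10 higher, 6 lower and 3 not past the threshold of 19 (median log2 0.16). Ier3, Junb and Socs3 were higher (log2 2.39, 1.85 and 1.23), with Junb sharing exon bases with Prdx2, and Fos and Atf3, chosen after their values were seen, were lower (log2 -1.38 and -2.97). The part of dissociation in the members' levels was not tested.

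By the root mean square difference of centred log2 CPM over all 7 libraries, the gene most like Tsc22d3 among 9069 candidates was Spock2, a matrix proteoglycan gene (0.190), and next Lmo7 (0.333) and Cdo1 (0.337). For Zbtb16 it was Npr1, a natriuretic peptide receptor gene (0.200), then Aldh1a1 (0.309) and Cys1 (0.316). For Fkbp5, which was lowest in BMFA3 cells, it was Prss23 (0.0977) and Mmp15 (0.0984), with Kif18b (0.252) far behind. The closest genes of other members were Ubn1 for Sgk1 (0.0246), Tango6 for Klf9 (0.0426), Yeats2 for Nr3c1 (0.0453), Dnmt1 for Per1 (0.0577) and Mcm7 for Glul (0.0666). Gucy1b1 was closest to Pdk4 (0.143) and Traf3ip1 to Hsd11b1 (0.157). With 3 groups, any gene of like group means comes near by this measure.

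Because most members are direct targets of the receptor, the 250 bases before each gene start in the RefSeq table of promoters (GRCm38.p6) were searched for the full palindromic element, which is AGAACA, 3 letters of any kind and TGTTCT and reads the same on both strands, and for a single arm of it (TGTTCT or AGAACA, the same arm on either strand). The table held 8 of the 10 members, all but Nr3c1 and Zbtb16, with 16 windows, of which 6 were of Sgk1. The full element was in 3 of 32851 windows of all genes (0.00913%), and 1 of these belonged to Sgk1. With at most 2 mismatches in its 12 fixed letters it was in 1.56% of all windows and in 2 member windows, both of Sgk1. A single arm, which the full element also contains, was in 16.1% of all windows and in 4 of the 16 member windows (25%). These windows were of Sgk1 and Tsc22d3 only, and windows of the same gene are not separate members. The windows below are shown because they hold the element in the gene with the highest level and an arm in a gene with a deep decrease. Capitals mark the element or arm.
Sgk1, chr10:21993640-21993889, plus strand, full element: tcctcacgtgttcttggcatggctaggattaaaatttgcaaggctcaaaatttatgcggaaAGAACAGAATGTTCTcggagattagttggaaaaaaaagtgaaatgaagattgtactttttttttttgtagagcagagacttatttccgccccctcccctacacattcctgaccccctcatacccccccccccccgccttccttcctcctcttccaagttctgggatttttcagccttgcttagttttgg
Sgk1, chr10:21985901-21985955, plus strand, element with 2 mismatches: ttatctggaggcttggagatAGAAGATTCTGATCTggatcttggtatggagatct
Tsc22d3, chrX:140600660-140600772, minus strand, single arm: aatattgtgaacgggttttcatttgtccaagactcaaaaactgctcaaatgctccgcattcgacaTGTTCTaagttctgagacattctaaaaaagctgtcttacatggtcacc

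The full Sgk1 element begins at position -189 from an internal start of that gene, in sequence that is intronic for its longer transcripts. Sgk1, the member with this element, was also among the least changed, at 366 ± 1.98 CPM in BMFA3 and 299 ± 7.41 CPM in CT1BA5 cells against 583 ± 10.8 CPM in parental cells. That window holds a further arm at position -242, left in lower case. Tsc22d3, with a single arm at position -185 from its outermost RefSeq start, was 17.7-fold lower in the mean of both sorted groups. GENCODE starts this gene farther out, so 137 of the 250 bases of that window are exon. Those bases are left out of the stretch shown. No window of the other 6 members in the table, Fkbp5 and Per1 among them, held an arm. The windows of Fkbp5, Per1 and Hsd11b1 lay inside the genes, that of Hsd11b1 wholly in exon. For these genes the sequence before the outermost start was not searched. A match is a run of letters and not a measured binding site, and receptor-bound elements of many response genes lie in introns or farther away than this window reaches.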

How the data were processed

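Per the labels' protocols, the RNeasy Mini Kit gave the RNA and standard Illumina protocols the libraries. The deposited table holds raw counts per Ensembl gene, as whole numbers made by the authors, with a column for each of 7 libraries. CASAVA, DESeq2 1.24.0 and mm10 are named per the submitters' processing notes, with no role; an aligner, a counter, an annotation and a strand setting were not given in the sources used here. Without strand, reads of overlapping genes cannot be told apart.

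Symbols and coordinates came from GENCODE M21 (GRCm38), which matched 54495 of 54532 identifiers. Genes passing edgeR's filterByExpr (minimum count 10; 99.9% of counts) were fitted in edgeR 4.0.16 (R 4.3.3) with TMM scaling and a model of 3 groups on all 7 libraries, with quasi-likelihood F tests, adjusted by Benjamini-Hochberg over all tested genes at 0.05. SEs are the log2 fold change divided by the square root of F. CPM levels were computed from the counts and the scaled library sizes; floors of 3 counts cover counting error only. Tested on simulated data, the script recovered 4-fold changes nearly completely and missed some 2-fold ones. The parental libraries differed by 2.34 to 3.27, BMFA3 by 2.24 and CT1BA5 by 5.24 times the variance of sampling noise, and all share a single estimate of the spread.

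Named genes were the members, 8 genes chosen by name (Nr3c2, Hsd11b2, H6pd, Fkbp4, Dusp1, Per2, Klf15 and Il6), and the 3 genes of each list with the smallest p in both sorted groups minus parental; others are marked, or are relatives of members. Members and lists were chosen with earlier results of these data known. Likeness was computed among tested genes of at least 10 CPM on average. Alternatives were RLE scaling, library size alone, no filter, at least 1 CPM in at least 2 libraries, adjusted p of 0.01, glmTreat at 2-fold, the replicate number as a block, only the compared groups, limma-voom (3.58.1), DESeq2 (1.42.0) and leaving out each library.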

Additional observations from a re-analysis of the deposited data

Results flagged for a closer look

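The change from parental cells differed between the tumour lines, by the edgeR test of CT1BA5 minus BMFA3 itself, in 7 of the 10 genes, where 25.3% of all tested genes were called lower and 25.5% higher in CT1BA5 cells. The log2 difference was -0.50 for Nr3c1, -0.99 for Zbtb16, -0.71 for Per1, -0.65 for Klf9, -0.29 for Sgk1 and -1.23 for Pdk4, all lower in CT1BA5 cells, and 0.96 for Fkbp5, higher in CT1BA5 cells. The 2 libraries of each group allow no test of a single library standing apart.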

How the results depend on the processing

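Of 670 values of single members under 17 alternatives, 636 kept direction and call, 32 kept direction and lost the call (18 with glmTreat; 12 of the other 14 for Hsd11b1), 2 gained a call and 0 of those called changed sign. The calls gained were Hsd11b1 in BMFA3 cells without parental replicate 1 (adjusted p = 0.0397, edgeR) and Glul in CT1BA5 minus BMFA3 with library size alone (-0.24). With glmTreat at 2-fold, called members numbered 6 for both sorted groups, 5 for BMFA3, 7 for CT1BA5 and 0 for CT1BA5 minus BMFA3, against 10, 9, 10 and 7 for any change. Called genes numbered 2370 for both sorted groups, 1706 for BMFA3, 3010 for CT1BA5 and 875 for CT1BA5 minus BMFA3, against 9599, 8135, 9743 and 7008. Leaving out a library gave 9 to 10 called members for both sorted groups, 8 to 10 for BMFA3, 9 to 10 for CT1BA5 and 6 to 7 for CT1BA5 minus BMFA3. Library size alone moved the median of all genes to -0.149 for both sorted groups, -0.071 for BMFA3, -0.234 for CT1BA5 and -0.163 for CT1BA5 minus BMFA3, and the share of calls that were higher to 37.6, 42.4, 35.8 and 33.3%, against 50, 49.4, 50.3 and 50.2% with TMM; all members remained lower than in parental cells. Same-numbered libraries correlated at 0.146 (CT1BA5 with BMFA3) and -0.227 to -0.0992 (with parental) in their deviations from group means. With 2 libraries in a sorted group these deviations mirror each other. Whether replicate numbers pair libraries thus cannot be settled, and libraries were treated as unpaired. With the replicate number as a block, 8494, 7044, 8867 and 6478 genes and 9, 9, 9 and 7 members were called, in the order above, and Hsd11b1 had adjusted p of 0.155 for both sorted groups and 0.161 for CT1BA5 (edgeR). Only parental libraries have a replicate 3, so this block fits that library by itself and in effect leaves it out. Depth limits Hsd11b1, Nr3c2 and Hsd11b2, which had few counts in every library. The cause of calls lost was not tested.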
